A study of Homo sapiens with 10 samples.

Results

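TGF-beta and activin signalling was followed through 10 genes: the ligand genes TGFB1, TGFB2, TGFB3, BMP4 and INHBA, the receptor genes TGFBR1 and TGFBR2, the signal transducers SMAD3 and SMAD7, and the antagonist FST. They were found by symbol, and all 10 were present among the 28281 symbols of both count tables. The data are poly(A) RNA-seq counts from A549 and NCI-H1944 (shortened to H1944), 2 established lines of human lung adenocarcinoma, in which APEX1 was knocked out (KO) or left intact (WT). A549 gave 3 KO libraries, known by the column numbers 65, 16 and 66, and 3 WT libraries, and H1944 gave 2 KO and 2 WT libraries. The study's title concerns APE1, the product of APEX1, which is a DNA repair endonuclease and a redox regulator of transcription factors, and DNA G-quadruplexes, which are stacked folds of G-rich sequence. By the labels the groups of a line differ in APEX1 alone, and they name no added agent. A549 cells grew in DMEM and H1944 cells in RPMI1640, both with serum, so line and medium cannot be told apart. The labels do not say how the knockout was made, whether a KO group is 1 clone, or whether replicate libraries stand for separate cultures.

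TGF-beta ligands are secreted in a latent complex and, once released, bind the type II receptor TGFBR2, which phosphorylates the type I receptor TGFBR1. TGFBR1 phosphorylates SMAD2 and SMAD3, which enter the nucleus with SMAD4 and bind target promoters, while SMAD7 is an inhibitory SMAD that is itself a target and blocks the receptor. Activins use the same SMADs through other receptors, and BMPs signal through SMAD1, SMAD5 and SMAD9. In lung adenocarcinoma cells, TGF-beta is known for driving a change from epithelial to mesenchymal gene expression, and A549 is a common model of that response.

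Because G-quadruplexes are in the study's title, the 250 bases before the start of each gene were read from the RefSeq table of GRCh38.p14, where all 10 genes matched. The windows of 3 genes are shown because their RNA rose in H1944 KO, on the strand of the gene, with capitals for a G-quadruplex pattern: 4 runs of at least 3 G with gaps of 1 to 7 bases, searched on both strands, and written as C runs where it lies on the opposite strand. The windows are chr19:41353923-41354172 on the minus strand for TGFB1, chr15:67065352-67065601 on the plus strand for SMAD3, and chr3:30606106-30606355 on the plus strand for TGFBR2.
TGFB1: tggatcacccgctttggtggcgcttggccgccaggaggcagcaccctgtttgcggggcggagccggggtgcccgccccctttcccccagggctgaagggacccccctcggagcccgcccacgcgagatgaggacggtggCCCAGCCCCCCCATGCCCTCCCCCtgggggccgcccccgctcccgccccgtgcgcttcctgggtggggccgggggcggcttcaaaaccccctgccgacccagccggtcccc
SMAD3: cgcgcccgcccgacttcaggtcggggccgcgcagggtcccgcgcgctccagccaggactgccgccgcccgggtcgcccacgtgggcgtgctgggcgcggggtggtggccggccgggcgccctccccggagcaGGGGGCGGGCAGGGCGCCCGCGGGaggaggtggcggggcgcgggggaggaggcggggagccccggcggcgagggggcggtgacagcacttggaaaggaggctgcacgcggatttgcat
TGFBR2: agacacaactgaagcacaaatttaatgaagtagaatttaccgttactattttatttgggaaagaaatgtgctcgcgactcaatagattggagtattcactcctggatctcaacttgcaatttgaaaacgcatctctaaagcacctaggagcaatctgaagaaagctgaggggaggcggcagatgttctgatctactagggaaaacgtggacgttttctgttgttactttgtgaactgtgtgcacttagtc
The TGFB1 pattern lay at bases -111 to -88 from the start, on the opposite strand, and the SMAD3 pattern at -118 to -95, on the strand of the gene. The first-listed TGFBR2 window had no match and a GC content of 40.8%, against 76.8% for TGFB1, 80.8% for SMAD3 and a median of 58% over all windows. The pattern was in the first-listed window of 2 of the 10 genes, TGFB1 and SMAD3, and in 22.6% of all 27305 windows. Other start sites of SMAD3, TGFB3, TGFBR1, SMAD7 and BMP4 also had a window with the pattern. The SMAD box CAGACA was in the first-listed window of TGFB2, in windows at other start sites of TGFBR1, SMAD3 and BMP4, and in 13.6% of all windows. The AP-1 element TGACTCA (4.16% of all windows), the palindromic SMAD element GTCTAGAC (0.176%) and the cyclic AMP element TGACGTCA (1.77%) were in none of the 10 first-listed windows, and the AP-1 element was in a window at another start site of SMAD3. A match is a description of the letters and does not show a fold or a bound factor.

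Libraries held 19578197, 23316585 and 23336357 counts in A549 KO 65, 16 and 66 and 18314224 to 24358934 in A549 WT, and 28950423 and 30219850 counts in H1944 KO against 20754740 to 22144904 in H1944 WT. APEX1 itself was at 64.4, 58.6 and 109 CPM (library-size-scaled counts, with scaling factors computed over all 10 libraries) in A549 KO 65, 16 and 66, against 165 to 264 CPM in A549 WT. It was at 85.5 and 85.8 CPM in H1944 KO, against 240 and 239 CPM in H1944 WT, a log2 fold change of -1.48 (SE 0.037, adjusted p = 6.43e-19 by edgeR's quasi-likelihood test). The fold change in A549 was -1.51 (SE 0.30, adjusted p = 0.521), with KO and WT apart, as for 10.6% of all genes in A549. A549 libraries formed 2 sets that each hold both genotypes, split by whether the ribosomal RNA gene RNA28SN4 had any counts. It had 5945 and 4839 counts in KO 65 and WT 1, and 0 in KO 16, KO 66, WT 2 and WT 3. Why the sets differ in it was not tested. The share of counts from ribosomal RNA genes together was 0.337% and 0.284% in KO 65 and WT 1. It was 14.2%, 7.19%, 6.45% and 6.46% in KO 16, KO 66, WT 2 and WT 3. In H1944 this share was 0.308% and 0.316% in KO and 0.139% and 0.231% in WT, and its part in the results was not tested. Of the 10 lung adenocarcinoma and epithelial markers, NKX2-1 had 0 counts in H1944. The markers' summed level was 17170 to 17600 CPM in H1944 KO and 9698 to 9863 CPM in H1944 WT. Yet 5 of the 8 tested fell in H1944 KO, against 33.9% of all genes, among them EPCAM (log2 fold change -6.21) and CDH1 (-4.72). Another 2 rose, against 33.2% of all genes: the keratin genes KRT18 (0.98) and KRT8 (0.81). In A549 the sums were 11730 to 25910 CPM in KO and 10460 to 26630 CPM in WT. Fibroblast markers summed to 24.1 to 27.1 CPM in H1944 KO against 19.2 to 21.4 CPM in WT, and to 19.3 to 36.8 CPM in A549 KO against 14.8 to 19.2 CPM in WT. Of the 7 fibroblast markers tested in H1944, 4 rose, 3 of them at least 2-fold, and 1 fell. Among all genes there 33.2% rose, 10.1% at least 2-fold, and 33.9% fell. None of the 4 fibroblast markers tested in A549 passed. The fibroblast markers COL1A2 and DCN were at 0 in all A549 libraries, the leukocyte markers CD3E, CD3D and MS4A1 were at 0 in all 10 libraries, and the 10 endothelial markers summed to at most 5.95 CPM. The 10 leukocyte markers summed to 57.2 to 59.6 CPM in H1944 KO against 34.2 to 35.7 CPM in WT, where CD68 was the 1 of 3 tested that rose (log2 fold change 0.95), and to 42.9 to 46.0 CPM in A549 KO against 38.1 to 52.2 CPM in WT. The part of these markers in the H1944 results was not tested. In bulk RNA, fewer cells of a type and less RNA per cell cannot be told apart.

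In H1944, APEX1 KO cells had more RNA of TGFB1, TGFBR2 and SMAD3 and less of SMAD7, BMP4 and TGFBR1. TGFB1 was 3.36-fold, TGFBR2 2.12-fold and SMAD3 1.63-fold higher in H1944 KO than in H1944 WT. Of the 8 genes that passed the filter on low counts in H1944, 3 rose, 3 fell, and TGFB2 and TGFB3 did not pass the test. Since 67.1% of the 16626 genes tested in H1944 passed, 6 of 8 is near the background and is no result about these genes as a set. At a threshold of at least 2-fold higher, 2 of the 8 passed, against 10.1% of all genes. At least 2-fold lower, 0 of the 8 passed, and the share of all genes on that side is not given here. With so few genes, this is no result about the set either. The median log2 fold change was 0.289 over these 8 genes and -0.00648 over all genes tested. FST and INHBA had too few counts to be tested in H1944. In A549 none of the 9 genes tested passed with edgeR, DESeq2 or limma-voom, and none had an unadjusted p under 0.05 with edgeR. There 0.00633% of 15806 genes passed the edgeR test, and 895 had an unadjusted p under 0.05. KO and WT libraries of A549 overlapped for all 9, while 10.6% of all genes had the groups apart. In H1944 the groups were apart for all 8 genes tested, and for 82.5% of all genes, so groups that are apart are common in that line. The coefficient of biological variation was 39% in A549 and 4.74% in H1944, so a change of the size seen in H1944 is measured with much less precision in A549.

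**Figure D1:**
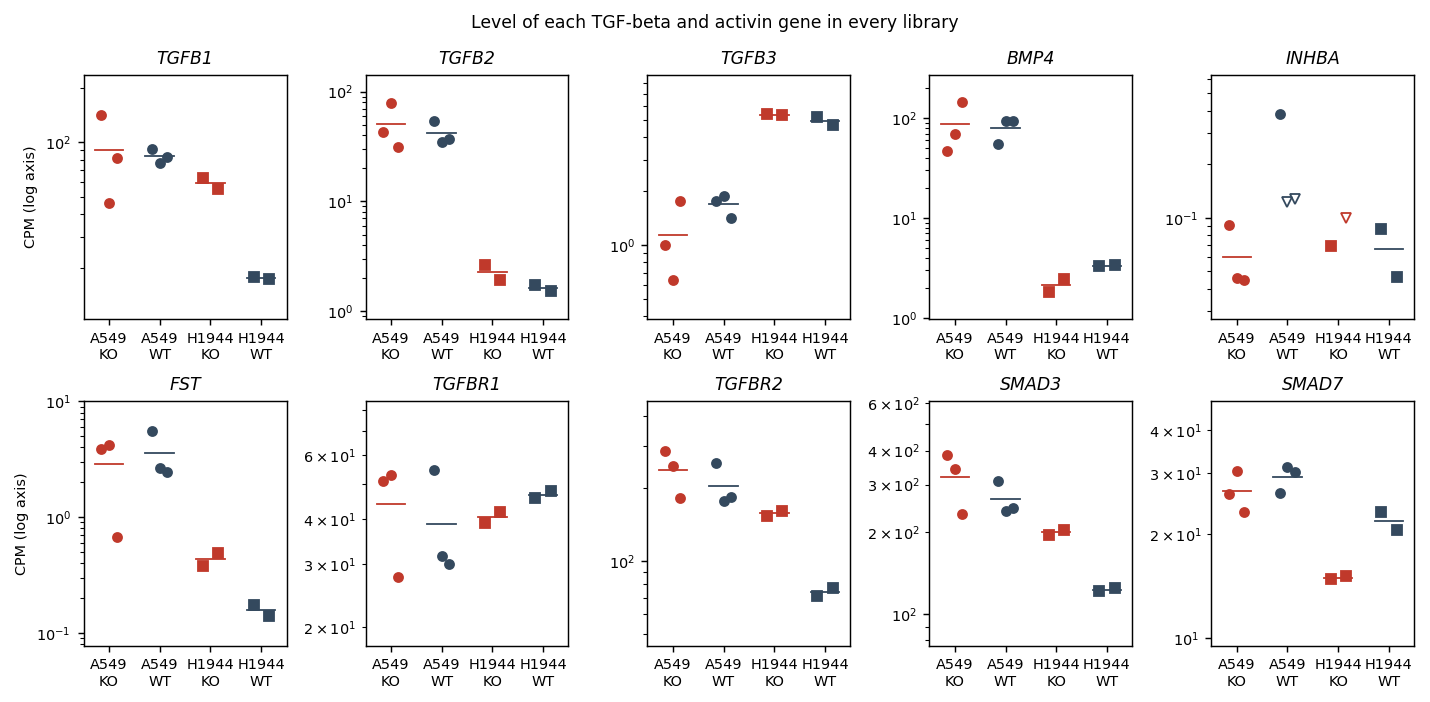
Level of each of the 10 genes in CPM on a log axis, in the 3 A549 KO and 3 A549 WT libraries (circles) and the 2 H1944 KO and 2 H1944 WT libraries (squares), with KO in red and WT in blue. Within A549 the points run KO 65, 16, 66 and WT 1, 2, 3 from left to right, lines are group means where no library is at 0, and open triangles mark libraries with 0 counts, drawn at the level of 3 counts. TGFB1, TGFBR2 and SMAD3 of H1944 KO lie above H1944 WT, SMAD7, BMP4 and TGFBR1 lie below, and the A549 groups overlap for every gene tested.

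TGFB1, the TGF-beta ligand with the widest expression, had the largest change of the 8 genes in H1944 (chromosome 19, 41301587 to 41353911, minus strand). It was at 63.2 and 55.4 CPM in H1944 KO and at 17.9 and 17.4 CPM in H1944 WT. Both KO libraries stood far above both WT libraries, and the groups were apart for 82.5% of all genes in H1944. The log2 fold change was 1.75 (SE 0.075, adjusted p = 8.15e-15). In A549, TGFB1 was at 142, 46.3 and 82.2 CPM in KO 65, 16 and 66, and at 91.9, 76.3 and 82.4 CPM in WT 1, 2 and 3. The A549 KO libraries held both the highest and the lowest value, so the groups overlapped. The A549 log2 fold change was 0.12 (SE 0.38, adjusted p = 0.995), and within the library sets KO 65 was 0.63 above WT 1, KO 16 was 0.77 below the mean of WT 2 and WT 3, and KO 66 was 0.05 above it, on the log2 scale. Without KO 65 the A549 value was -0.35. TGFB1 shares 215 exon bases with HNRNPUL1 on the opposite strand, and the counting is not stated to use strand, so reads in that stretch are uncertain.

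TGFB2, a ligand of the same receptors that also needs the co-receptor TGFBR3 for tight binding, was rare in H1944 and abundant in A549 (chromosome 1, 218346235 to 218444619, plus strand). It was at 2.63 and 1.94 CPM in H1944 KO and at 1.74 and 1.54 CPM in H1944 WT, with a log2 fold change of 0.47 (SE 0.28, adjusted p = 0.147). The H1944 groups did not overlap, which held for 82.5% of all genes there, and the difference did not pass the test. In A549, TGFB2 was at 43.2, 78.2 and 31.2 CPM in KO 65, 16 and 66 and at 53.6, 34.7 and 36.9 CPM in WT 1, 2 and 3. KO 16 was the highest and KO 66 the lowest of the 6 libraries, and the log2 fold change was 0.31 (SE 0.39, adjusted p = 0.995). The transcript TGFB2-OT1 overlaps 1371 exon bases of TGFB2 on the same strand, so reads there could be counted for either. TGFB3, the third ligand, known for palate and lung development in the mouse, was low in both lines (chromosome 14, 75958099 to 75982991, minus strand). It was at 5.36 and 5.29 CPM in H1944 KO against 5.21 and 4.68 CPM in H1944 WT, and at 1.00, 0.64 and 1.75 CPM in A549 KO 65, 16 and 66 against 1.77, 1.88 and 1.41 CPM in A549 WT 1, 2 and 3. Neither difference passed: the log2 fold change was 0.11 in H1944 (SE 0.17, adjusted p = 0.608) and -0.56 in A549 (SE 0.44, adjusted p = 0.995). TGFB3 shares 163 exon bases with TGFB3-AS1 on the opposite strand, with the same uncertainty as for TGFB1.

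BMP4, a ligand of the BMP branch that patterns the lung bud in mouse embryos, fell in H1944, where it was scarce (chromosome 14, 53949736 to 53958761, minus strand). It was at 1.80 and 2.43 CPM in H1944 KO and at 3.30 and 3.37 CPM in H1944 WT, a log2 fold change of -0.65 (SE 0.24, adjusted p = 0.0225). Both KO libraries lay below both WT libraries, and the groups were apart for 82.5% of all genes in H1944. The call was lost with DESeq2 (adjusted p = 0.148), without H1944 KO 1 (0.197), without H1944 WT 2 (0.0556) and with all 10 libraries in 1 fit (0.474). In A549, BMP4 was at 46.6, 68.9 and 147 CPM in KO 65, 16 and 66 and at 54.7, 94.5 and 93.0 CPM in WT 1, 2 and 3. The lowest values belonged to KO 65 and WT 1, the set with RNA28SN4 counts and the smaller share from ribosomal RNA genes. The other 4 libraries were on average 0.94 higher on the log2 scale. The A549 log2 fold change was 0.15 (SE 0.44, adjusted p = 0.995), and it was -0.46 without KO 66 and -0.05 without WT 1.

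INHBA encodes the subunit of activin A, and it was at or near the detection limit everywhere (chromosome 7, 41667168 to 41705834, minus strand). A549 KO 65, 16 and 66 had 2, 1 and 1 counts, and A549 WT 1, 2 and 3 had 8, 0 and 0. H1944 KO had 2 and 0 counts, and H1944 WT had 2 and 1. A library's limit of 3 counts was 0.0993 to 0.164 CPM, so no difference in INHBA was detectable at this depth. FST encodes follistatin, which binds and neutralises activins (chromosome 5, 53480409 to 53487134, plus strand). It had 11 and 15 counts in H1944 KO and 4 and 3 counts in H1944 WT. The ratio of its summed, scaled counts was 2.78 (95% exact binomial interval 1.18 to 7.58, which covers counting error only), with no test across libraries. In A549, FST was at 3.86, 4.17 and 0.67 CPM in KO 65, 16 and 66 and at 5.60, 2.66 and 2.45 CPM in WT 1, 2 and 3. KO 66 was far below the other 5 libraries, and the log2 fold change of -0.28 (SE 0.69, adjusted p = 0.995) became 0.19 without it and 0.24 without WT 1.

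The type II receptor TGFBR2, which binds the ligand, rose in H1944 (chromosome 3, 30606502 to 30694142, plus strand). It was at 154 and 161 CPM in H1944 KO and at 71.6 and 77.1 CPM in H1944 WT. The pairs of libraries were tight and far apart, with a log2 fold change of 1.08 (SE 0.044, adjusted p = 3.01e-15). Groups were apart for 82.5% of all genes in H1944. In A549, TGFBR2 was at 287, 247 and 182 CPM in KO 65, 16 and 66, against 256, 177 and 184 CPM in WT 1, 2 and 3. KO 66 lay among the WT libraries, and the log2 fold change was 0.24 (SE 0.26, adjusted p = 0.995). Within the sets, KO 65, 16 and 66 were 0.17, 0.45 and 0.01 above their WT libraries on the log2 scale. TGFBR2 and SMAD7 were the 2 of 9 genes with the same direction in each A549 KO library within its set, a pattern found for 33.8% of all genes.

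The type I receptor TGFBR1, whose kinase acts on the SMADs, was nearly level in H1944 (chromosome 9, 99104038 to 99154192, plus strand). It was at 38.9 and 41.9 CPM in H1944 KO and at 45.7 and 47.6 CPM in H1944 WT, a log2 fold change of -0.21 (SE 0.061, adjusted p = 0.00546). The groups were apart, as for 82.5% of all genes in H1944. KO lay below WT in both libraries, but the call was lost with DESeq2 (adjusted p = 0.0723), without H1944 KO 1 (0.0933) and with all 10 libraries in 1 fit (0.773). In A549, TGFBR1 was at 51.0, 52.9 and 27.6 CPM in KO 65, 16 and 66 and at 54.7, 31.5 and 29.97 CPM in WT 1, 2 and 3, with a log2 fold change of 0.20 (SE 0.36, adjusted p = 0.995). The groups overlapped, and KO 66 was the lowest library.

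SMAD3, the transcription factor that receptors of the TGF-beta and activin branch phosphorylate, rose in H1944 (chromosome 15, 67063763 to 67195195, plus strand). It was at 196 and 204 CPM in H1944 KO and at 122 and 124 CPM in H1944 WT, with a log2 fold change of 0.70 (SE 0.038, adjusted p = 5.46e-13). Both KO libraries stood above both WT libraries, and the groups were apart for 82.5% of all genes in H1944. In A549, SMAD3 was at 384, 343 and 233 CPM in KO 65, 16 and 66, against 310.4, 241 and 247 CPM in WT 1, 2 and 3. KO 66 was the lowest of the 6 libraries, and the log2 fold change was 0.29 (SE 0.25, adjusted p = 0.995). SMAD3 shares 182 exon bases with AC087482.1 on the opposite strand, so reads in that stretch are uncertain, as for TGFB1.

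SMAD7, the inhibitory SMAD, fell in H1944, where SMAD3 rose (chromosome 18, 48919853 to 48952052, minus strand). It was at 14.8 and 15.1 CPM in H1944 KO and at 23.2 and 20.6 CPM in H1944 WT, a log2 fold change of -0.55 (SE 0.091, adjusted p = 1.73e-05). The groups were apart, as they were for 82.5% of all genes in H1944, and the KO libraries agreed more closely than the WT libraries. In A549, SMAD7 was at 26.0, 30.5 and 23.1 CPM in KO 65, 16 and 66 and at 26.3, 31.2 and 30.2 CPM in WT 1, 2 and 3, with a log2 fold change of -0.11 (SE 0.19, adjusted p = 0.995). With all 10 libraries in 1 fit, which lends H1944 the wider spread of A549, TGFB1 (adjusted p = 0.0249) and TGFBR2 (0.0211) still passed in H1944, and SMAD3 (0.0883) and SMAD7 (0.0886) did not.

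**Figure D2:**
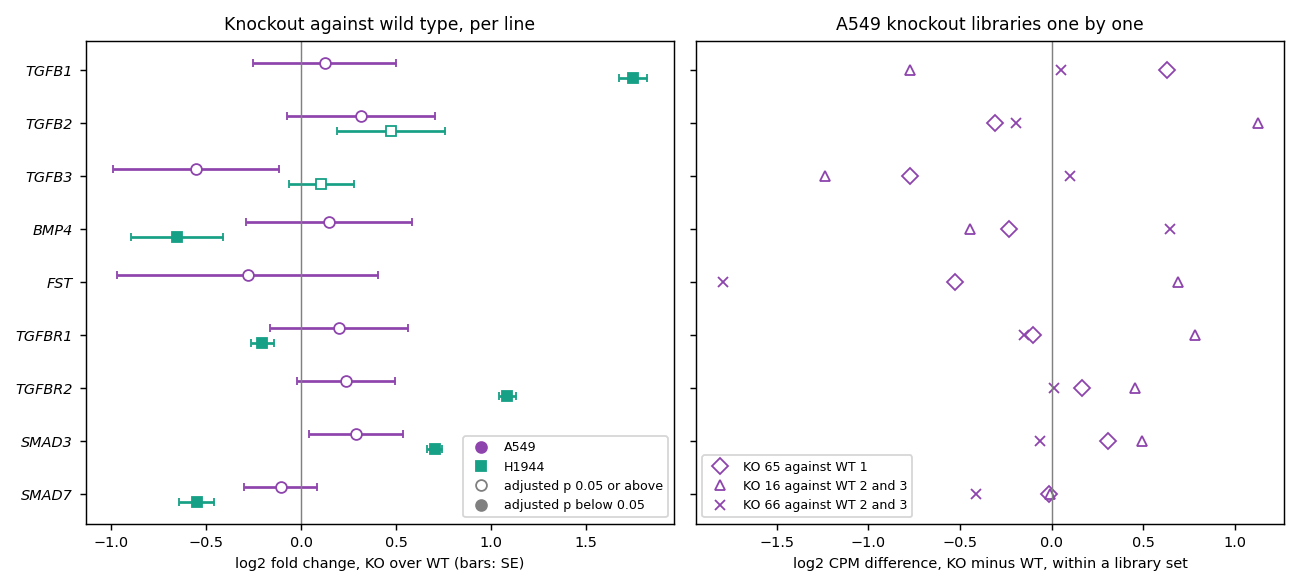
Left, log2 fold change of KO over WT for the 9 genes tested in A549 (circles) and the 8 tested in H1944 (squares), with bars of 1 SE and filled symbols for an adjusted p under 0.05. Right, log2 CPM difference of each A549 KO library from the WT library or libraries of its own set. The H1944 bars are short and 6 of 8 symbols are filled, while no A549 symbol is filled and the A549 KO libraries scatter to both sides of 0 for most genes.

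Whether the lines differed in their response was tested directly, as the A549 change minus the H1944 change in 1 fit of all 10 libraries. None of the 9 genes tested passed with edgeR, against 6.95% of 17677 genes. An unadjusted p under 0.05 was found for 2 of the 9 and for 3863 of the 17677, so 2 is near the background. The difference was largest in size for FST, at -1.74 (SE 1.13, adjusted p = 0.415), followed by TGFB1 at -1.64 (SE 0.53, adjusted p = 0.109). FST had 4 and 3 counts in H1944 WT, too few to be tested in H1944 alone, so its place rests on a group near the floor. For TGFBR2 the difference was -0.87 (SE 0.32, adjusted p = 0.156), and the other adjusted p-values ran up to 0.891. The outcome for TGFB1 depended on the fit: it passed with a term for the A549 library sets (-1.74, adjusted p = 0.0203), with DESeq2 (-1.65, 0.0253) and without A549 KO 65 (-2.13, 0.0146), and its adjusted p ran from 0.0146 to 0.312 over 15 alternatives. TGFBR2 passed in 1 of the 15, with the term for the sets (-0.86, adjusted p = 0.0221). A call in H1944 and none in A549 is therefore not by itself a difference between the lines for these genes.

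Ratios between the genes, taken within each library per kilobase of exon, show how the balance moved in H1944. TGFB1 made up 90.3% and 89.7% of the summed level of the 3 TGF-beta ligands in H1944 KO, and 74.5% and 75.9% in H1944 WT. The sum itself was 25.3 and 22.3 CPM per kilobase in H1944 KO and 8.70 and 8.26 in H1944 WT. The ratio of TGFBR2 to TGFBR1 was 5.56 and 5.41 in H1944 KO and 2.21 and 2.28 in H1944 WT. The ratio of SMAD3 to SMAD7 was 8.32 and 8.46 in H1944 KO and 3.29 and 3.79 in H1944 WT. All 3 ratios were apart between the H1944 groups, which follows from the fold changes given above. In A549 KO 65, 16 and 66 the TGFB1 share was 85.2%, 51.6% and 81.3%, against 74.7%, 78.5% and 79.2% in WT 1, 2 and 3. KO 16 stood apart with TGFB2 at 47.7% of the sum. The A549 ratios of TGFBR2 to TGFBR1 (6.58 to 9.28 in KO, 6.58 to 8.64 in WT) and of SMAD3 to SMAD7 (6.33 to 9.25 in KO, 4.83 to 7.39 in WT) overlapped between the groups.

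**Figure D3:**
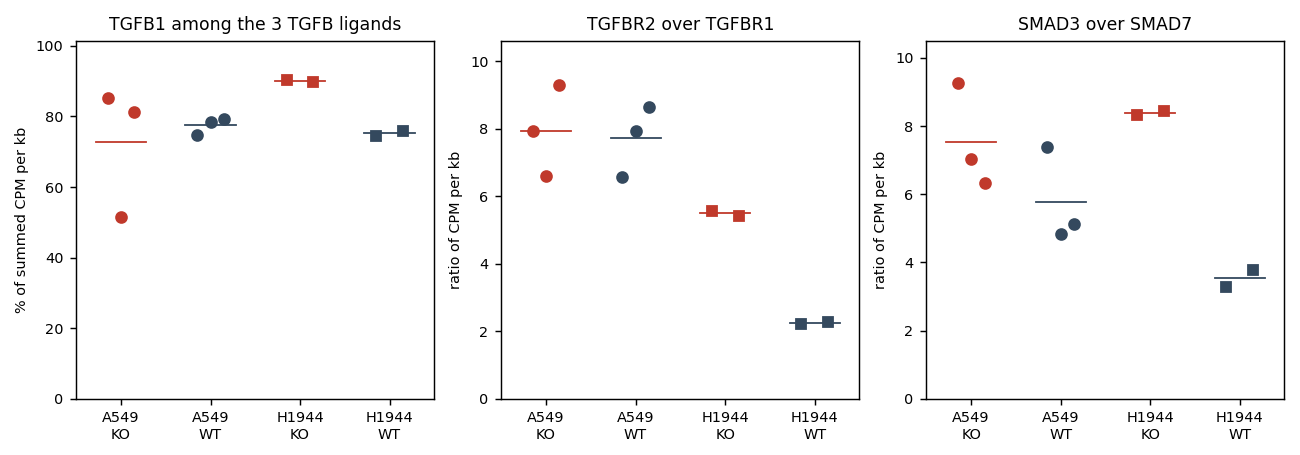
Share of TGFB1 in the summed CPM per kilobase of TGFB1, TGFB2 and TGFB3 (percent), ratio of TGFBR2 to TGFBR1 and ratio of SMAD3 to SMAD7, with 1 point a library (KO red, WT blue, A549 circles, H1944 squares) and lines at group means. In H1944 every KO point lies above every WT point, and in A549 the groups overlap in all 3 panels.

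The lines without knockout differed in their levels of the ligands. A549 WT had 25.3-fold more TGFB2 than H1944 WT (log2 difference 4.66, SE 0.47, adjusted p = 0.000128), 24.2-fold more BMP4 (4.59, SE 0.55, adjusted p = 0.000315) and 21.9-fold more FST (4.46, SE 0.90, adjusted p = 0.00422). FST had only 4 and 3 counts in H1944 WT and passed the filter on low counts through A549 alone. Its fold and adjusted p therefore rest on a group near the floor. TGFB1 (2.24, adjusted p = 0.0025), TGFBR2 (1.47, adjusted p = 0.00141) and SMAD3 (1.11, adjusted p = 0.0043) were also higher in A549 WT than in H1944 WT, and TGFB3 was lower (-1.55, adjusted p = 0.00934). The TGFB3 call was lost without H1944 WT 1 (-1.47, adjusted p = 0.0631). For BMP4 the difference was 14.9-fold with a term for the A549 library sets (log2 difference 3.90). TGFBR1 (-0.27, adjusted p = 0.53) and SMAD7 (0.42, adjusted p = 0.0771) did not pass. In all, 7 of 9 genes passed, FST among them, against 43.5% of 17677 genes. Of these, 6 were higher and 1 lower in A549 WT, against 21.2% and 22.2% of all genes. Line, medium and the handling of the libraries cannot be told apart in this comparison.

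Per kilobase of exon, the order of the genes differed between the groups. In A549 KO, TGFBR2 (50.8 CPM per kilobase), SMAD3 (44.3), BMP4 (41.5) and TGFB1 (32.6) had overlapping ranges at the top, and TGFB2 (10.1), TGFBR1 (6.63) and SMAD7 (5.86) followed. In A549 WT, TGFBR2 (43.7), BMP4 (38.4) and SMAD3 (36.8) overlapped, TGFB1 (30.2) was just below SMAD3, and TGFB2 (8.26), SMAD7 (6.45) and TGFBR1 (5.85) overlapped from one to the next. FST, TGFB3 and INHBA were last in both A549 groups. In H1944 KO the order was TGFBR2 (33.5), SMAD3 (27.6), TGFB1 (21.4) and TGFBR1 (6.11), with no neighbours overlapping. In H1944 WT it was SMAD3 (17.0), TGFBR2 (15.8), TGFBR1 (7.05) and TGFB1 (6.37), so the ligand and the type II receptor each stood 1 place higher in KO. SMAD7, TGFB3, BMP4, TGFB2, FST and INHBA followed in the same order in both H1944 groups.

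The other genes of the pathway were read in the same fits, list by list. In H1944, 33.2% of all genes tested rose and 33.9% fell, and in A549 none of the 111 genes of the lists tested passed with edgeR. There 14 of the 111 had an unadjusted p under 0.05 with edgeR, against 895 of all 15806 genes. With DESeq2, 4 of 128 list genes passed, among them GDF15, SMAD2 and MMP14, and 126 of all genes did. Among the other ligands of the TGF-beta and activin branch, 3 of 5 tested rose in H1944 and none fell, with a median log2 fold change of 0.655. GDF15, a distant relative that is induced by cell stress, was at 127 and 119.8 CPM in H1944 KO and at 21.2 and 20.6 CPM in H1944 WT (log2 fold change 2.56, adjusted p = 3.02e-20). It was at 308, 108 and 229 CPM in A549 KO 65, 16 and 66 and at 70.0, 56.1 and 55.4 CPM in A549 WT 1, 2 and 3. The A549 groups were apart, as for 10.6% of all genes there. The A549 log2 fold change was 1.84, with an adjusted p of 0.521 by edgeR and 0.00167 by DESeq2. GDF11 (0.65) and GDF1 (1.39) also rose in H1944. Among the other BMP ligands, 4 of 10 rose and 4 fell in H1944. BMP5 fell to 3.91 and 2.89 CPM in H1944 KO, against 33.6 and 35.6 CPM in H1944 WT (log2 fold change -3.35, adjusted p = 2.16e-16). BMP2 (2.47), BMP7 (1.49), BMP6 (1.09) and the oocyte factor GDF9 (0.56) rose.

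Of 15 other receptors and co-receptors tested in H1944, 4 rose and 6 fell, against 33.2% and 33.9% of all genes. TGFBR3, the betaglycan co-receptor that presents TGFB2, was at 162 and 161 CPM in H1944 KO and at 50.1 and 47.7 CPM in H1944 WT (log2 fold change 1.72, adjusted p = 4.94e-19). ENG, the co-receptor endoglin, rose by 2.44 on the log2 scale at a low level (4.05 and 4.04 CPM in H1944 KO, 1.00 and 0.47 CPM in H1944 WT), and by 3.10 without H1944 WT 1. The decoy receptor BAMBI (-1.90), the BMP receptor BMPR1B (-2.96) and the activin type I receptor ACVR1B (-0.91) fell. Of the 20 other SMADs and regulators, 7 rose and 11 fell in H1944, against the same shares of all genes. SMAD2, the partner of SMAD3, fell to 217 and 224 CPM in H1944 KO, against 363 and 376 CPM in H1944 WT (-0.75, adjusted p = 3.53e-14), and SMAD4, the shared partner, fell by 1.05 on the log2 scale (adjusted p = 4.77e-14). SMAD2 was at 82.1, 90.1 and 75.7 CPM in A549 KO 65, 16 and 66 and at 149, 153 and 153 CPM in A549 WT 1, 2 and 3. Those groups were apart, as for 10.6% of all genes in A549. The log2 fold change was -0.85, with an adjusted p of 0.521 by edgeR, 0.003 by DESeq2 and 0.0479 with all 10 libraries in 1 fit. SMURF1, a ubiquitin ligase that degrades receptors and SMADs, fell by 1.27, and the repressor TGIF1 (0.60) and PMEPA1, a feedback inhibitor (1.28), rose in H1944.

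Latency and activation genes moved in both directions in H1944: 11 of 19 rose and 6 fell, against 33.2% and 33.9% of all genes, with a median of 0.514. MMP2, a gelatinase that can release TGF-beta, was at 259 and 254 CPM in H1944 KO and at 11.2 and 10.8 CPM in H1944 WT (log2 fold change 4.55, adjusted p = 6.76e-25). FBN1, the fibrillin that tethers latent TGF-beta (3.57), the integrin subunit gene ITGB5 (2.01) and the proprotein convertase FURIN, which cleaves the TGF-beta precursor (1.05), rose. ITGB3, an integrin subunit, had 107 and 143 counts in H1944 KO and 0 and 1 counts in H1944 WT, a ratio of 187 with a 95% exact interval of 33.3 to 7417 for counting error. The subunits of the epithelial activators of latent TGF-beta fell: ITGB6 was at 1.07 and 1.31 CPM in H1944 KO and at 30.6 and 29.2 CPM in H1944 WT (-4.64, adjusted p = 9.76e-18), and ITGB8 fell by 3.48 at a low level, and by 4.22 without H1944 KO 1. MMP14, a membrane metalloproteinase, fell by 2.21 in H1944 (by 2.80 without H1944 KO 1; adjusted p = 0.114 with all 10 libraries in 1 fit) and had a log2 fold change of 3.28 in A549 (adjusted p = 0.583 by edgeR, 0.000717 by DESeq2), where KO 65, 16 and 66 were at 2.63, 17.8 and 24.7 CPM and WT at 1.48, 1.42 and 1.84 CPM. Of 10 other secreted antagonists tested in H1944, 5 rose and 2 fell, against the same shares of all genes. The BMP antagonist NOG rose by 3.58 and the follistatin-like genes FSTL1 and FSTL3 by 0.65 and 0.12, TWSG1 rose by 0.64, and NBL1 fell by 1.04. The FSTL3 call was lost with DESeq2 (adjusted p = 0.0723), without H1944 KO 1 (0.111), without H1944 WT 2 (0.158) and with all 10 libraries in 1 fit (0.857).

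Among 32 tested genes known as TGF-beta and SMAD3 targets, 20 rose and 6 fell in H1944, where 33.2% of all genes rose and 33.9% fell. The median log2 fold change of the 32 was 0.619. FN1, the matrix protein fibronectin, was at 235 and 244 CPM in H1944 KO and at 7.04 and 6.74 CPM in H1944 WT (log2 fold change 5.12, adjusted p = 6.76e-25). VIM, the mesenchymal intermediate filament, rose by 1.76 on the log2 scale. TGFBI, a matrix protein named for its induction by TGF-beta, rose to 909 and 913 CPM in H1944 KO, against 297 and 303 CPM in H1944 WT, which is 3.04-fold. MMP2 and PMEPA1 are also in this list. Targets that fell in H1944 were NEDD9, a cell adhesion scaffold (-2.84), IGFBP3, an IGF-binding protein (-1.49), the collagens COL7A1 (-1.09) and COL1A1 (-0.78), and ITGB6. In A549 the median of the 32 was 0.37 beside 0.0179 over all genes, 7 of 32 had KO and WT apart against 10.6% of all genes, and none passed the test. In the same H1944 libraries 5 of the 8 epithelial markers tested fell and 2 rose, while their summed level was higher in KO (17170 to 17600 CPM) than in WT (9698 to 9863 CPM), and their part in this list's changes was not tested. Of 15 known BMP targets, 11 rose and 3 fell in H1944, against 33.2% and 33.9% of all genes, with a median of 1.28. GATA2 (1.93), MSX2 (1.38), ID2, an inhibitor of helix-loop-helix factors (1.37), MSX1 (1.28) and ID3 (0.77) rose along with NOG, and BAMBI and SMAD7, which belong to this list too, fell. With all 10 libraries in 1 fit, 6.66% of all 17677 genes rose and 7.61% fell in H1944. In it 9 of 32 TGF-beta targets rose and 4 fell, and 8 of 15 BMP targets rose and 1 fell in H1944. In that fit 6 of 20 latency and activation genes rose and 2 fell, 2 of 15 receptors rose and 2 fell, and of 20 SMADs and regulators none rose and 3 fell. There 2 of 7 other TGF-beta and activin ligands rose and none fell, 1 of 10 other BMP ligands rose and 3 fell, and 1 of 11 antagonists rose and none fell.

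**Figure D4:**
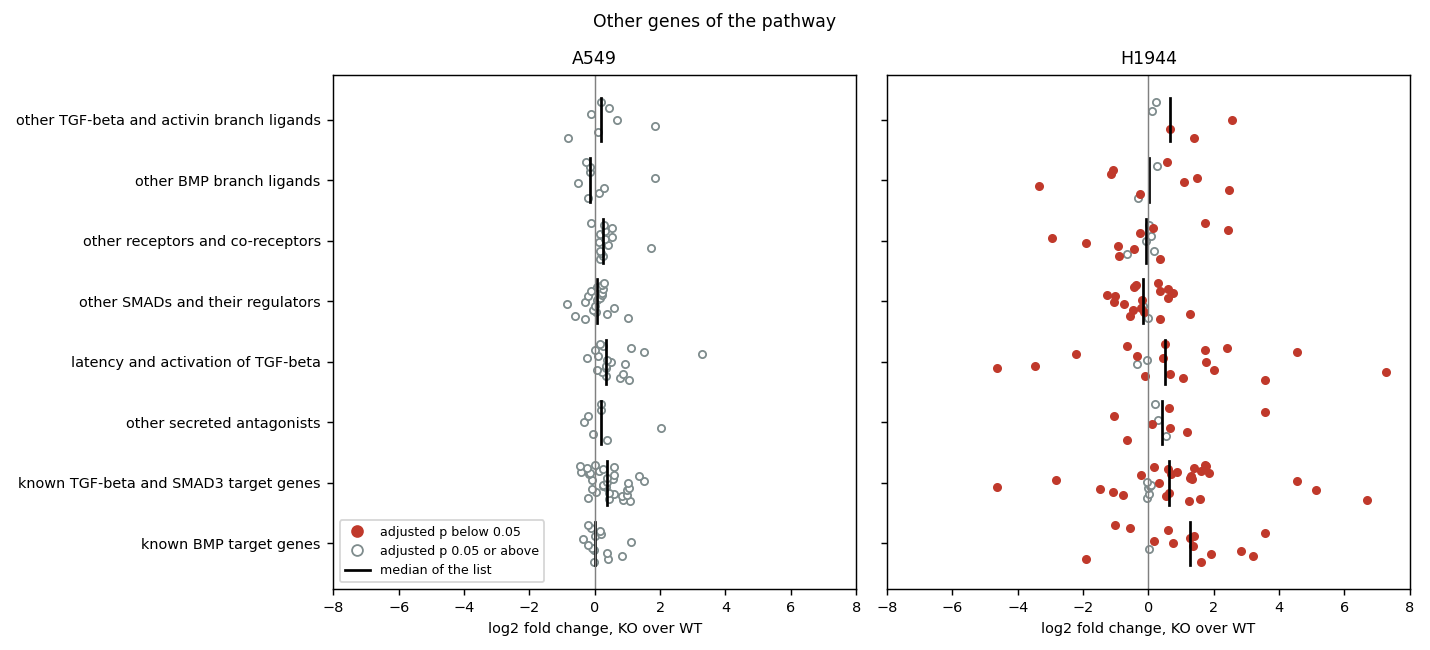
Log2 fold change of KO over WT for the tested genes of 8 pathway lists in A549 (left) and H1944 (right), with 1 point a gene, filled where the adjusted p is under 0.05, and black bars at each list's median. In H1944 points of most lists lie on both sides of 0, the medians lie near or below it for other BMP ligands (0.016), receptors (-0.0854) and SMADs and regulators (-0.179), and those of the other 5 lists lie between 0.407 and 1.28. In A549 no point is filled.

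The genes whose levels ran most like each of these genes were found by Pearson's r of log2 CPM over the 10 libraries, after the mean of each line was subtracted, among 10865 genes for all but 3 of them. The points share libraries, and the KO and WT difference of H1944 is part of each r, which is given as a description. FKBP9 was nearest to TGFB1 (r = 0.991), DDX58 to TGFBR2 (0.988), OSTM1 to SMAD3 (0.992), MGLL to SMAD7 (0.973) and HSPA4L to TGFBR1 (0.995). RBM19 was nearest to BMP4 (0.989), GPATCH2L to TGFB2 (0.960) and ATXN2L to TGFB3 (0.954).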

How the data were processed

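The files hold raw counts per gene symbol, deposited by the authors as 1 table per line, with no normalization. Per the submitters' processing notes, the tools were Trim Galore 0.5.0, HISAT2 2.1.0, featureCounts 1.6.4 and DESeq2, on 150 bp paired-end reads aligned to hg38. The annotation, the use of strand and what was done with reads that align to several places are not given in the sources used here. The labels' protocols name TRIzol extraction, oligo(dT) selection and a VAHTS mRNA-seq kit.

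Groups come from the labels. The A549 columns 65, 16 and 66 carry no genotype and were taken as A549 KO because the labels leave no other group. No per-sample column was left out. The p-values rest on the spread among these libraries alone, and that spread may be technical. Replicates differed by more than sampling noise, at a chi-square per gene of 1.9 for A549 WT 2 and WT 3, 2.95 for H1944 KO, 3.37 for H1944 WT and 135 to 273 for other A549 pairs.

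Genes were kept by filterByExpr (minimum count 10), scaled by TMM and tested within each line by edgeR's quasi-likelihood test in its robust form (edgeR 4.0.16, R 4.3.3), with Benjamini-Hochberg adjustment over all genes tested and a threshold of 0.05. Where no other tool is named, an adjusted p is edgeR's. An SE was computed by dividing the size of a log2 fold change by the square root of its F value. Exact permutation tests of 3 against 3 A549 libraries cannot go below p = 0.1. For A549 KO against A549 WT they gave 0.9 for TGFB1 and 0.2 for TGFB3. The difference between lines and the WT comparison came from 1 fit of all 10 libraries. Printed CPM were scaled over all 10 libraries, which shifts KO minus WT by 0.0257 (log2) in A549 and by -0.000241 in H1944 relative to the fits. Differences within library sets use log2 CPM with a prior count of 2. Levels per kilobase use the union of exons in GENCODE v29 on GRCh38, which also gave the gene coordinates. Promoter sequences are RefSeq's, on GRCh38.p14. Alternatives were DESeq2 1.42.0, limma 3.58.1 with voom, other scaling and filters, a term for the A549 sets, the replicate number as a block, and each library left out.

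The 10 genes and the lists were chosen with earlier results of these data known. Named pathway genes are, per list, up to 5 with the smallest H1944 p among those passing with a mean of at least 1 CPM, and every gene called in A549 or in the difference between lines. The 3 genes most like each member were ranked among genes with a mean of at least 5 CPM in both lines, and the first is named. Up to 4 genes of a marker list may be named beyond that. Some listed genes are not reported here by name. Fits were tested on simulated data. Totals ran from 18314224 to 30219850 counts per library, and limits of 3 counts and intervals cover counting error only.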

Additional observations from a re-analysis of the deposited data

Results flagged for a closer look

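The change with APEX1 knockout differed between the lines, by the test of the difference itself in edgeR (adjusted p under 0.05), for 19 of 119 tested genes of the pathway lists and for none of the 9 TGF-beta and activin genes tested, against 6.95% of 17677 genes. Values are the A549 change minus the H1944 change on the log2 scale.

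The difference was positive for MMP14 (5.45), ITGB6 (4.97), ITGB8 (4.41), BMPR1B (3.23), NEDD9 (2.73), BAMBI (2.28), COL1A1 (1.74), SMURF1 (1.46), IGFBP3 (1.39) and COL7A1 (1.11), all of which fell in H1944. It was negative for ITGB3 (-7.18, a fitted value against a group with 1 count in H1944 WT), NOG (-3.39), VIM (-2.26), GDF1 (-2.25), ITGB5 (-1.67), MSX1 (-1.67), BMP6 (-1.63), TGFBI (-1.48) and MSX2 (-1.41), all of which rose in H1944.

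The calls for BMPR1B, IGFBP3, ITGB3, NEDD9 and VIM passed in each of 15 alternatives, and the other 14 were lost in at least 1. VIM was at 644, 658 and 699 CPM in A549 KO 65, 16 and 66 against 735 to 1043 CPM in A549 WT, and at 1164 and 1139.6 CPM in H1944 KO against 340.0 and 338 CPM in H1944 WT. For MMP14 the adjusted p of the difference ran from 1.89e-06 to 0.122, and for ITGB6 from 1.28e-07 to 0.0818. Leaving out 1 library moved 3 of these 19 differences by more than 1.5 times when taken as unlogged folds. On the log2 scale ITGB8 moved to 3.54 without A549 KO 65 and 5.15 without H1944 KO 1, and MMP14 to 6.05 without H1944 KO 1. ITGB3 moved to -9.58 without H1944 WT 2, -6.28 without H1944 WT 1 and -6.50 without A549 WT 1. Without H1944 KO 1 neither ITGB8 (adjusted p = 0.101) nor MMP14 (0.0805) passed.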

How the results depend on the processing

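Few libraries and, in A549, a wide spread limit these results. Under the 13 alternatives run in A549, no member passed. Of 221 values recomputed there, 209 kept their direction and side of the threshold, 4 newly passed and 8 reversed. Beside the members, these values cover named pathway genes chosen because their A549 KO and WT libraries were apart, which favours a kept direction. All 8 reversals were of members: TGFB1, TGFB2, BMP4 and FST. TGFB1 was -0.0040 with limma-voom and -0.30 in the larger set alone. With a library left out, TGFB1 ran from -0.35 to 0.43, TGFB2 from -0.17 to 0.57, BMP4 from -0.46 to 0.45 and FST from -0.67 to 0.24. Genes called in A549 numbered 1 with edgeR, 2 with no filter, 126 with DESeq2 (84 higher, 42 lower), 2 with a term for the sets, 0 in the larger set alone, 16 with all 10 libraries and 0 whichever library was left out.

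In H1944, 483 of 510 values were kept and 27 lost the call. Most of the named pathway genes among these values were chosen for passing in H1944, which favours a kept call. The 10 genes were not chosen by that rule. With all 10 libraries in 1 fit, 2 of the genes and 2522 of all genes passed, against 6 and 11164; with a library left out, 4 to 6 of the genes did. The replicate numbers were not shown to pair the H1944 libraries (r = 0.0132), and with the replicate block 6 genes and 11228 of all genes passed, with no call among the 10 genes changed. No paired analysis was possible because of missing numbers in A549, whose KO columns match no label number.

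For the difference between lines, 664 of 780 values were kept, 73 lost the call, 36 gained it and 7 reversed. TGFB1 passed alone with DESeq2 and without A549 KO 65, and 2 of the genes passed with the term for the sets, against 0. The count of all genes was 1228, 2235 with DESeq2, 2759 with the term for the sets, and 397 to 2892 with a library left out. With a library left out, TGFB2 ran from -0.64 to 0.068, FSTL1 from -0.76 to 0.31, BMP2 from -0.57 to 4.60 and BMP7 from -0.35 to 0.74. In A549 WT against H1944 WT, 87 of 90 values were kept, TGFBR1 turned to 0.076 with the term for the sets, and 4138 to 9740 genes were called with a library left out, against 7683. With the term for the sets, the A549 WT level in that comparison is the one fitted for the set of KO 65 and WT 1. The cause of these changes was not tested.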
